A study of Mus musculus with 2 samples.

Results

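The p53 pathway and target genes described here are a list of 35 mouse genes, chosen by name with earlier results of these data known. All 35 were found among the 35275 genes of the deposited read count table. They were measured by RNA sequencing in bone marrow mesenchymal stem/progenitor cells (MSPC), the stromal cells of marrow that can give rise to bone, cartilage and fat. One library came from Ptpn11+/+ mice (control) and 1 library from Ptpn11E76K/+ mice (mutant), both on the C57BL/6 strain and both carrying Nestin-Cre, a recombinase expressed from the promoter of the intermediate filament gene nestin. The phosphatase SHP2, a positive regulator of RAS and ERK, is the product of Ptpn11, and the E76K substitution activates it. Cells were sorted fresh as CD45-, Ter-119- and CD31- (no blood, erythroid or endothelial surface marker) and CD140+ and Sca-1+. The age of the mice, the number pooled and the way the mutant allele was switched on are not stated in these sources, so how many of the sorted cells carried it is not known.

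The transcription factor p53 is held at a low level by Mdm2, which marks it for degradation, and is stabilised by DNA damage and by oncogenic signalling. Stable p53 binds pairs of short half-sites in DNA and raises genes that halt the cell cycle, start cell death, repair DNA and adjust metabolism, and several of these, Mdm2 among them, act back on p53. In mesenchymal cells the pathway is known for restraining proliferation and bone formation. The protein is controlled mainly after translation, so the level of the Trp53 transcript is not a measure of p53 activity.

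Promoter sequence is shown for the 4 genes whose window held the closest match to a pair of p53 half-sites, since 2 of them were far lower in the mutant library and 2 were near the control level. Promoter windows from RefSeq on GRCm38.p6, running from 250 bases before to 50 bases after a transcription start, were supplied for 27 of the 35 genes (38 windows). Each was searched on both strands for 2 p53 half-sites separated by 0 to 13 bases, where a half-site is 3 purines, C, 2 bases that are A or T, G and 3 pyrimidines, a pattern that reads the same on either strand. The C and the G were required and mismatches were counted over the other positions, and of equal matches the one with the shortest gap is shown. Capitals mark the 2 half-sites of the best match. The windows lie at chr17:29090729-29091028 (+) for Cdkn1a, chr11:40755237-40755536 (-) for Ccng1, chr7:45466849-45467148 (-) for Bax and chr10:41887189-41887488 (+) for Sesn1.
Cdkn1a: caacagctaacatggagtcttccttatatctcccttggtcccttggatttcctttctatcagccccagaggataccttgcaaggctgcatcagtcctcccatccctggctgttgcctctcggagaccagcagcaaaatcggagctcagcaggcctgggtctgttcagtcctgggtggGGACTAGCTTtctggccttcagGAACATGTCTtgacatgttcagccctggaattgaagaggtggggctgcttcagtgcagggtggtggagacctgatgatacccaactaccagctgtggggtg
Ccng1: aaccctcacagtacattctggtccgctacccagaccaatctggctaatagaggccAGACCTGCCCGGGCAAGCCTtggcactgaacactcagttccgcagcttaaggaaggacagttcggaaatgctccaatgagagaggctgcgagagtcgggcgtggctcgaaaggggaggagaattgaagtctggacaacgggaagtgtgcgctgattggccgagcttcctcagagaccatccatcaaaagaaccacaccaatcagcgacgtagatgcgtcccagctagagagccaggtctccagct
Bax: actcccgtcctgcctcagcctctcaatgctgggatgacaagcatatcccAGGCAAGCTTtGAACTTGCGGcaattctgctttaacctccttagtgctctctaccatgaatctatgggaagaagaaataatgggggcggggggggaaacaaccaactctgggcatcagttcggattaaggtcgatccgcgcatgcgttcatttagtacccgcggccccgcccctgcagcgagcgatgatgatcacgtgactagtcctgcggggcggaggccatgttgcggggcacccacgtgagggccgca
Sesn1: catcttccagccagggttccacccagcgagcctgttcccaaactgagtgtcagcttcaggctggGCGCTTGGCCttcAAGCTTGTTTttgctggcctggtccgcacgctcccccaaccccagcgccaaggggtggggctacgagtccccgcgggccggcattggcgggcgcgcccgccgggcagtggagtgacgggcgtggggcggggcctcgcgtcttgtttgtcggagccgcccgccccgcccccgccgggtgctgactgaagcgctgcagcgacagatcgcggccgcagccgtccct

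The Cdkn1a window held a pair with 0 mismatches and a gap of 12 bases, and its second half-site also paired without a gap with the 10 bases that follow it, at 1 mismatch (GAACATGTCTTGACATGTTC, from 51 to 32 bases before the start). The Ccng1 pair had 1 mismatch and no gap and lay 195 to 176 bases before the start. The Bax pair had 2 mismatches and a gap of 1 base, and the Sesn1 pair 2 mismatches and a gap of 3. These windows are 1 of 2 supplied for Cdkn1a and for Sesn1, and distances count from the transcription start of the window shown. The other windows lie at chr17:29093519-29093818 for Cdkn1a and chr10:41810324-41810623 for Sesn1. In each of them the best pair had 5 mismatches. A pair with at most 2 mismatches was found in 4 of the 38 windows and in 4.09% of the 32851 windows of all genes, a pair with at most 1 mismatch in 2 of the 38 and in 0.627% of all, and a half-site without mismatch in 11 of the 38 and in 8.36% of all. Some windows of a gene overlap, and a match is a description of these letters only. The genes with the closest matches were not at like ratios between the libraries. Ccng1 was 2.86-fold and Sesn1 2.93-fold lower in the mutant library, while Cdkn1a was at 0.896 and Bax at 1.06 of the control level.

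Read depth was 22328659 counts for control and 18010963 for mutant MSPC. Levels are given in CPM (counts relative to library size, with totals scaled by TMM factors), and each ratio of mutant to control has a 95% counting interval, which covers counting error only. With 1 library per genotype there is no spread between mice, no test and no p-value, and every difference is one between these libraries. A gene with at least 20 counts over both libraries counted as called, higher or lower, if no point of its interval was within 2-fold, and all 35 genes reached that minimum, from 83 counts for Perp to 11971 for Ccng1. Ptpn11 itself was at 5958 counts in control and 5039 in mutant MSPC. The sorted cells held transcripts of Pdgfra (2073 and 1792 counts) and Ly6a, the gene of Sca-1 (2177 and 612 counts, called lower), of Pdgfrb (6075 and 3721 counts) and of Nes, the nestin gene (5192 and 10785 counts, called higher), with 1 and 12 counts of Ptprc (CD45) and 5 and 2 of Pecam1 (CD31). The 8 erythroid and 8 endothelial markers summed to 1.61 CPM or less in either library. The 18 myeloid markers summed to 14.7 CPM in control MSPC against 69.9 in mutant MSPC, where 17 of the 18 were higher, and 11 of the 18, C1qa, Ctss and Itgam included, were at 0 counts in the control. The part of these myeloid transcripts in the results on the p53 genes was not tested.

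In the mutant library, 6 of the 35 genes (17.1%) were called lower and 0 higher, against 8.29% of all 13142 measured genes called lower and 6.98% called higher. The 6 were Trp53inp1, Fas, Sesn1, Ccng1, Xpc and Gdf15. All 6 had at least 100 counts, and among genes with that many counts 7.95% were called lower and 6.7% higher. The counting interval lay wholly below the control level for 24 of the 35 genes (68.6%, against 37.4% of all measured genes) and wholly above it for 9 (25.7%, against 39.6%). Intervals narrow with more counts, and these shares of all genes were not matched for counts. At least 100 counts were reached by 34 of the 35 genes and by 11172 of the 13142 measured genes. The intervals of Pmaip1 and Steap3 included no difference. The median log2 ratio was -0.32 over the 35 genes and 0.00285 over all measured genes. The list was chosen with earlier results of these data known, so these shares and medians are a description. In bulk RNA, fewer cells that express a gene and less RNA per cell cannot be told apart. The genes were not at one ratio, since their log2 ratios ran from -3.92 for Trp53inp1 to 1.22 for Pltp, and 16 of the 35 differed by less than 1.5-fold.

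**Figure D1:**
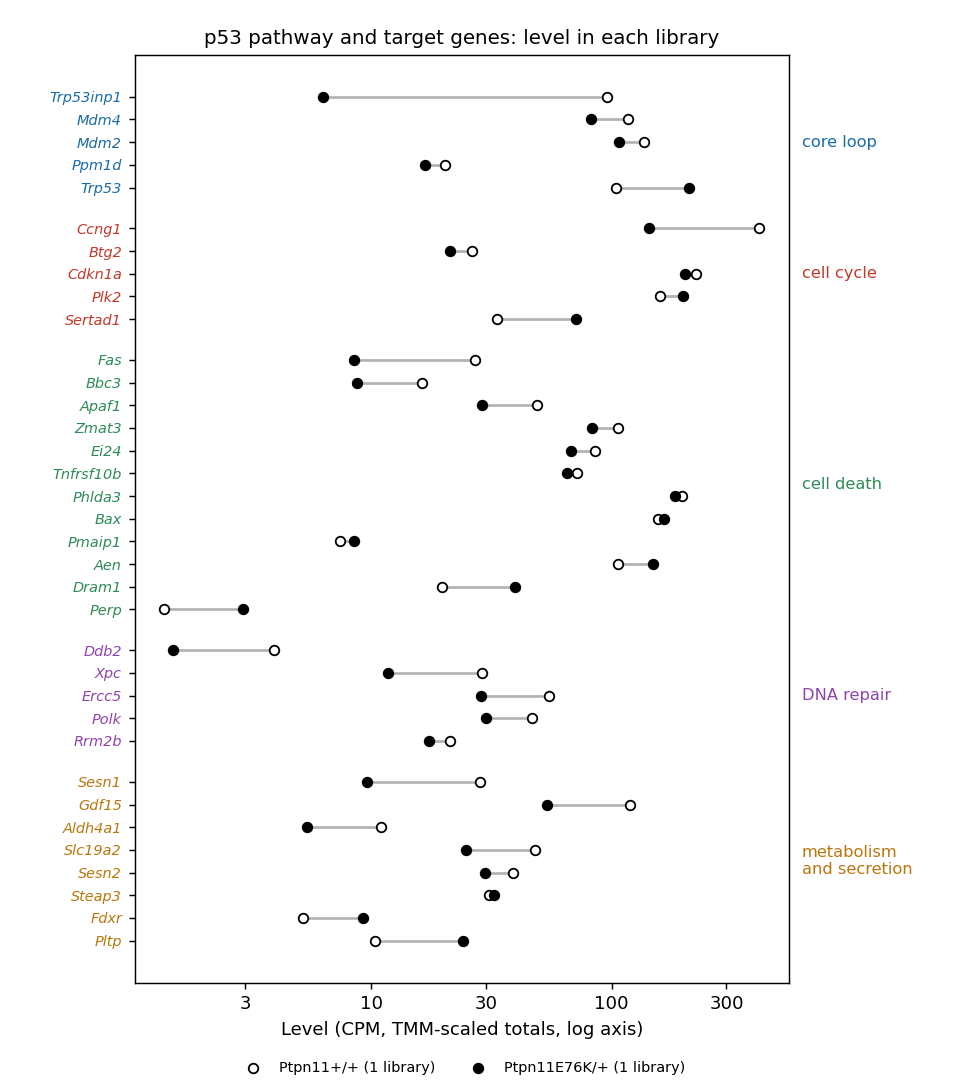
Level of each of the 35 genes in CPM (log axis) in the control library (open circles) and the mutant library (filled circles), grouped by role and ordered by ratio within a role. Trp53inp1 has the longest line, from 95.9 (control) to 6.33 CPM (mutant), while Trp53 lies to the right in the mutant, at 210 against 104 CPM.

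Within the loop that sets p53 activity, the transcription factor and its cofactor differed in opposite directions. Trp53, the gene of p53 itself, was at 2416 counts in control and 3658 in mutant MSPC, or 104 and 210 CPM. Its ratio was 2.01 (95% counting interval 1.91 to 2.12), which straddles the 2-fold limit, so it was not called. The pseudogene Trp53-ps had 0 counts in both libraries. Trp53inp1 encodes a stress-induced nuclear protein that promotes phosphorylation of p53, and it yielded 2218 control and 110 mutant counts, or 95.9 and 6.33 CPM. This was 15.2-fold lower in the mutant (12.5 to 18.5), and 0.814% of all measured genes had a lower ratio. The negative regulators were closer to the control. Mdm2, the ubiquitin ligase that marks p53 for degradation, yielded 3143 control and 1867 mutant counts, a ratio of 0.79 (0.746 to 0.837). Mdm4, which binds and silences the activation domain of p53, reached 2696 counts in control against 1422 in mutant MSPC, a ratio of 0.702 (0.657 to 0.748), and its pseudogene Mdm4-ps had 0 and 5. Ppm1d, the phosphatase that removes activating phosphates from p53 and from the kinases upstream of it, gave 468 counts in control and 292 in mutant MSPC, a ratio of 0.83 (0.715 to 0.963). All 3 of these negative regulators had their whole interval below the control level, as did 37.4% of all measured genes, and none was called. In this loop only Trp53inp1 was called lower, against 8.29% of all measured genes.

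Of the 5 cell cycle genes, the one with the most counts was called lower and the p21 gene was not. Ccng1 encodes cyclin G1, which brings a phosphatase to Mdm2, and it fell from 9482 to 2489 counts, or from 410.0 to 143 CPM. Its level was 2.86-fold lower in the mutant library (2.74 to 2.99). Cdkn1a encodes p21, the cyclin-dependent kinase inhibitor through which p53 arrests the cycle, and it was at 5189 counts in control and 3496 in mutant MSPC, or 224 and 201 CPM. Its interval lay just below the control level (ratio 0.896, 0.858 to 0.936). Btg2, an antiproliferative gene, yielded 609 control and 371 mutant counts, a ratio of 0.81 (0.71 to 0.924). Plk2, a polo-like kinase gene, reached 3659 counts in control against 3426 in mutant MSPC, a ratio of 1.25 (1.19 to 1.31). Sertad1 encodes a coregulator that binds the kinase CDK4, and with 774 and 1231 counts it had a ratio of 2.12 (1.93 to 2.32), so it stood higher without being called. The group thus held a called fall in Ccng1, small differences in Cdkn1a, Btg2 and Plk2, and a ratio near the 2-fold limit in Sertad1.

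The 12 cell death genes had 1 called lower and 0 called higher, a share of 8.33% that is near the 8.29% of all measured genes called lower. That gene was Fas, the death receptor, with 627 control and 148 mutant counts, or 27.1 and 8.51 CPM. It was 3.18-fold lower (2.66 to 3.84). Tnfrsf10b, the receptor for the death ligand TRAIL, gave 1662 counts in control and 1131 in mutant MSPC, a ratio of 0.905 (0.839 to 0.977), so the 2 death receptors differed unequally. The genes that act at mitochondria also did. Bax, which forms pores in the outer membrane, was at 3592 counts in control and 2861 in mutant MSPC, a ratio of 1.06 (1.01 to 1.11), which turned to 0.987 with total counts, to 0.97 with the 100 top genes left out of the totals and to 0.844 with length and GC trends taken out. Bbc3, which encodes the BH3-only activator PUMA, yielded 376 control and 152 mutant counts, 1.86-fold lower (1.54 to 2.26) and not called. Pmaip1, which encodes NOXA, another BH3-only protein, reached 172 counts in control against 148 in mutant MSPC, a ratio of 1.14 (0.912 to 1.43), so no difference was detectable at this depth. Apaf1, the scaffold of the apoptosome, gave 1132 counts in control and 501 in mutant MSPC and was 1.7-fold lower (1.53 to 1.89). Of the mitochondrial route, then, Bbc3 and Apaf1 lay below the control level and Bax and Pmaip1 near it.

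Among the other cell death genes, 3 lay slightly below the control level. These were Zmat3, an RNA-binding zinc finger gene (2466 and 1443 counts, ratio 0.778), Ei24, an endoplasmic reticulum membrane protein gene (1965 and 1182 counts, ratio 0.8), and Phlda3, whose protein restrains AKT (4524 and 3189 counts, ratio 0.938). With length and GC trends taken out, the interval of Zmat3 included no difference (ratio 0.949, 0.889 to 1.01). Ei24 was then at 0.734 and Phlda3 at 0.774. Aen, an apoptosis-enhancing nuclease gene, was at 2455 counts in control and 2570 in mutant MSPC, a ratio of 1.39 (1.32 to 1.47). Dram1, a lysosomal membrane protein gene linked to autophagy, yielded 456 control and 689 mutant counts, a ratio of 2.01 (1.78 to 2.27). Perp, a tetraspan membrane protein gene with a role in desmosomes, had the fewest counts of all 35 genes, 32 and 51, and a ratio of 2.12 with a wide interval (1.34 to 3.41). Aen, Dram1 and Perp had their whole interval above the control level, and none of them was called.

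All 5 DNA repair genes were lower in the mutant library, each with its whole interval below the control level, and 1 was called. Of all measured genes, 37.4% had their whole interval below the control level and 8.29% were called lower. Xpc, whose protein recognises damage at the start of nucleotide excision repair, reached 667 counts in control against 204 in mutant MSPC, or 28.8 and 11.7 CPM, and was 2.46-fold lower (2.10 to 2.89). Ddb2, which recognises ultraviolet damage in the same pathway, gave 91 counts in control and 26 in mutant MSPC and was 2.63-fold lower, but the interval from 1.69 to 4.24 left it uncalled. Ercc5, the nuclease XPG that cuts on the 3' side of the damage, was at 1273 counts in control and 496 in mutant MSPC and was 1.93-fold lower (1.74 to 2.14). Polk, a polymerase that copies past lesions, yielded 1076 control and 521 mutant counts, 1.55-fold lower (1.40 to 1.73). Rrm2b, the p53-inducible subunit of ribonucleotide reductase, reached 492 counts in control against 303 in mutant MSPC, 1.22-fold lower (1.06 to 1.41), but its ratio was 1.04 with length and GC trends taken out. The summed level of the 5 genes was 156 CPM for control against 89.1 CPM for mutant MSPC.

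Of the 8 genes of metabolism and secretion, 2 were called lower, Sesn1 and Gdf15 (25.0%, against 8.29% of all measured genes). Sesn1 encodes a sestrin, a stress-induced protein that restrains the growth kinase mTORC1, and it gave 654 counts in control and 168 in mutant MSPC, or 28.3 and 9.66 CPM. It was 2.93-fold lower (2.47 to 3.49). Its relative Sesn2 was at 903 counts in control and 518 in mutant MSPC and was 1.31-fold lower (1.18 to 1.46), without being called. Gdf15, a secreted stress cytokine gene of the TGF-beta superfamily, yielded 2761 control and 935 mutant counts, or 119 and 53.8 CPM, 2.22-fold lower (2.06 to 2.39). It lay closest to the 2-fold limit of the genes called. Slc19a2, a thiamine transporter gene, reached 1107 counts in control against 433 in mutant MSPC and was 1.92-fold lower (1.72 to 2.15). Aldh4a1, a mitochondrial enzyme gene of proline breakdown, gave 255 counts in control and 94 in mutant MSPC and was 2.04-fold lower (1.60 to 2.61). The remaining genes of this group were at or above the control level. Steap3, a ferrireductase gene, was at 713 counts in control and 563 in mutant MSPC, a ratio of 1.05 (0.939 to 1.17). Fdxr, the mitochondrial ferredoxin reductase gene, yielded 121 control and 161 mutant counts, a ratio of 1.77 (1.39 to 2.26). Pltp, a phospholipid transfer protein gene, reached 240 counts in control against 421 in mutant MSPC, with the highest ratio of the 35 genes, 2.33 (1.99 to 2.75), its lower bound just under the limit.

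**Figure D2:**
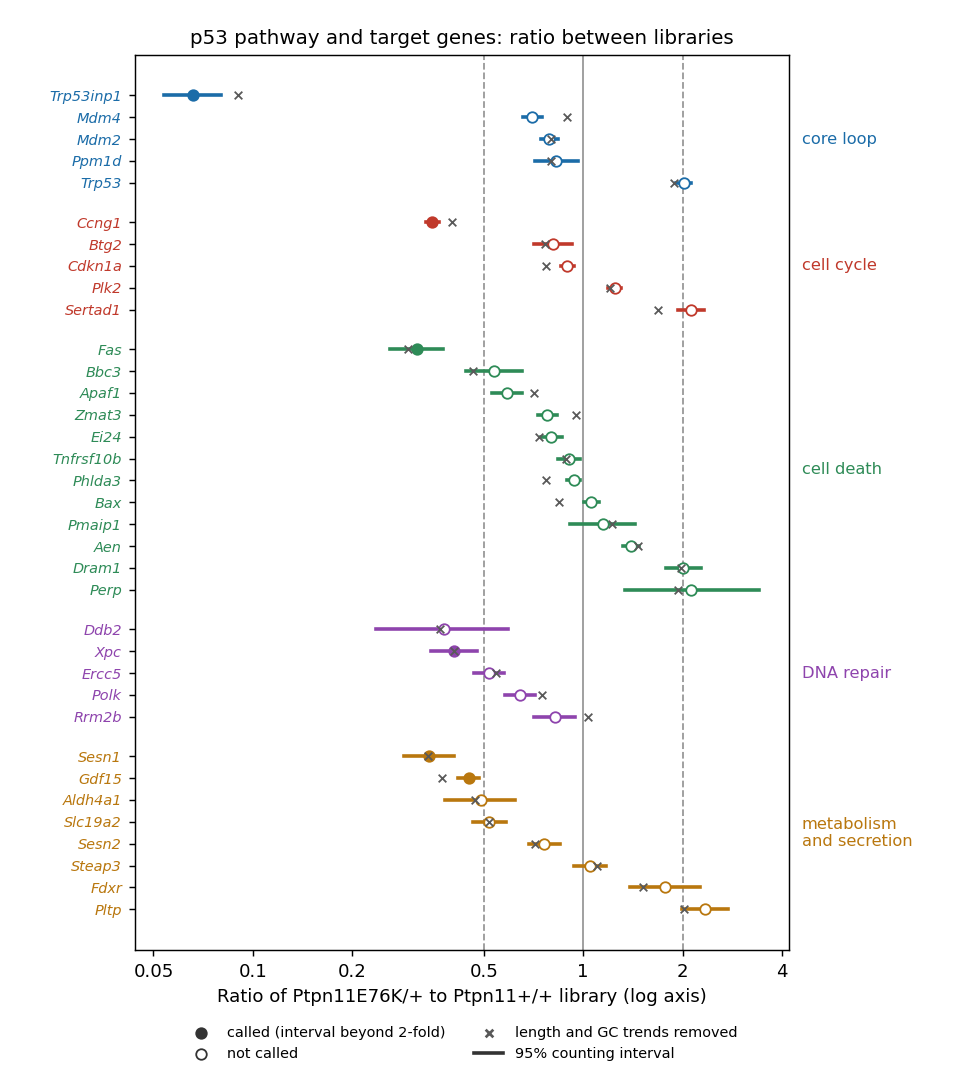
Ratio of the mutant to the control library for each of the 35 genes (log axis), with 95% counting intervals as bars, filled circles for genes called and crosses for the ratio with length and GC trends taken out. The 6 filled circles (Trp53inp1, Fas, Sesn1, Ccng1, Xpc and Gdf15) lie left of the dashed 2-fold line, and no filled circle lies right of 2.

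The genes just outside the 2-fold limit show how much rests on it. With the interval required to lie beyond 1.5-fold, 12 genes were called lower (34.3%, against 15.6% of all measured genes) and 4 higher, against 15.7% of all. The genes added below the control level were Bbc3, Apaf1, Ddb2, Ercc5, Aldh4a1 and Slc19a2, and those above it were Trp53, Sertad1, Dram1 and Pltp. By the point ratio alone, 8 genes were beyond 2-fold below and 5 above, against 14.6% and 10.9% of all measured genes. The sources used here do not say whether counting used strand, and exons of Ddb2, Pltp and Aldh4a1 overlap those of other protein-coding genes in GENCODE M21 (Acp2, Ctsa and Gm21969), as do those of Bax (Gm45808). Acp2 gave 1413 counts in control and 768 in mutant MSPC and Ctsa 5040 and 2746, each far more than its partner, so the values of Ddb2 and Pltp are uncertain. Gm21969 had 0 counts in both libraries. Cdkn1a, Ei24 and Rrm2b overlap non-coding or unclassified gene models.

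Counts of 2 genes of the list set against each other within a library do not depend on the library scaling. These paired counts show how the make-up of the pathway differed, with length and GC trends not taken out. The 10 pairs were chosen with the values known and are a description. Trp53inp1 had 0.918 counts per count of Trp53 in control MSPC and 0.0301 in mutant MSPC, a 30.5-fold lower value (95% counting interval 25.0 to 37.2). For Trp53 per count of Mdm2 the value went the other way, from 0.769 to 1.96, or 2.55-fold higher (2.36 to 2.75). The balance of Mdm4 to Mdm2 differed less, at 0.858 and 0.762, or 1.13-fold lower (1.03 to 1.23). With length and GC trends taken out, Mdm4 had a ratio of 0.894 and Mdm2 of 0.797, so the order of these 2 genes reversed. Among targets, Ccng1 per count of Cdkn1a was 1.83 in the control and 0.712 in the mutant, 2.57-fold lower (2.41 to 2.73). Gdf15 per count of Cdkn1a was 1.99-fold lower (1.83 to 2.17). Ccng1 and Gdf15 were thus lower relative to Cdkn1a in the mutant library, whatever the scaling. Fas per count of Tnfrsf10b was 2.88-fold lower (2.37 to 3.50) and Sesn1 per count of Sesn2 2.23-fold lower (1.83 to 2.73). Bbc3 was 1.97-fold lower per count of Bax (1.62 to 2.39) and 2.13-fold lower per count of Pmaip1 (1.59 to 2.84). Xpc per count of Ercc5 was 1.27-fold lower (1.06 to 1.54), so these repair genes were at closer ratios than the receptor or sestrin pairs.

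**Figure D3:**
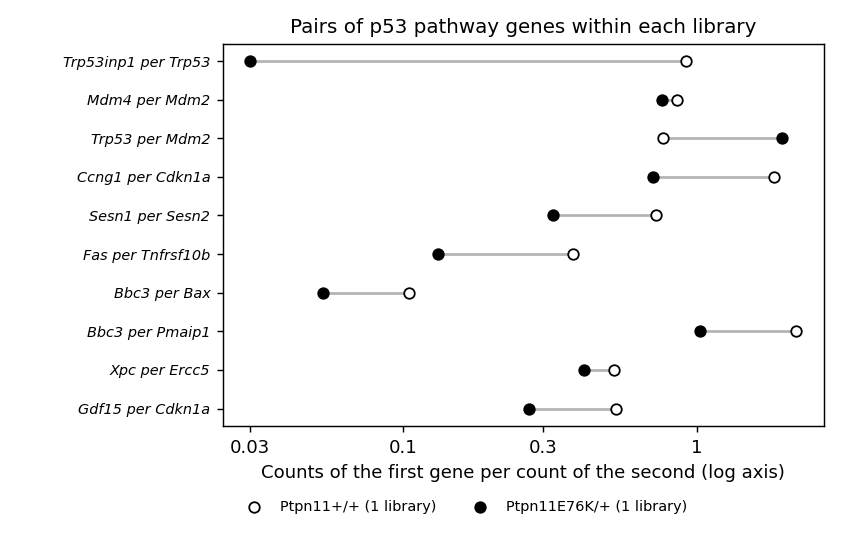
Counts of one gene per count of another within the control library (open circles) and the mutant library (filled circles), on a log axis, for 10 pairs. The filled circle lies left of the open one in 9 of the pairs, by 30.5-fold for Trp53inp1 per Trp53, and right of it for Trp53 per Mdm2. Length and GC trends are not taken out of these counts.

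Per kilobase of the longest annotated transcript, the order of the genes by level was partly kept. In the control library the highest levels were those of Bax (141 CPM per kilobase), Phlda3 (136), Ccng1 (117), Cdkn1a (108) and Gdf15 (77.3). In the mutant library they were those of Bax (150), Phlda3 (128), Cdkn1a (96.7), Plk2 (70.4) and Trp53 (64.2), with Ccng1 at 40.8 and Gdf15 at 34.8 CPM per kilobase. Trp53inp1 went from rank 13 of 35 in the control to rank 34 in the mutant, Fas from 14 to 24, and Pltp from 30 to 15. Over the 35 genes the rank correlation of the levels in the 2 libraries was 0.832, as a description of genes that share their libraries. The lowest genes were Perp in the control (0.709 CPM per kilobase) and Ddb2 in the mutant (0.651). Transcript lengths ran from 1100 bases for Bax to 7797 for Zmat3, with a median of 3660.5 bases for the 6 genes called lower and 2899 for the other 29. With trends of the ratio over transcript length and GC content taken out, the same 6 genes were called lower and 0 higher, against 7.72% and 6.67% of all measured genes. Trp53inp1 was then 11.1-fold lower, Ccng1 2.49-fold and Gdf15 2.67-fold lower, Trp53 had a ratio of 1.89 and Sertad1 of 1.69.

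The genes around the pathway did not share 1 direction. Of 24 modifiers and regulators of p53, 22 were measured. The rule called 2 of them lower (9.09%, against 8.29% of all measured genes) and 1 higher (4.55%, against 6.98%). Their median log2 ratio was -0.36, which was -0.11 with length and GC trends taken out. Cdkn2a, whose ARF product inhibits Mdm2, was at 1130 counts in control and 22 in mutant MSPC, 38.6-fold lower in the mutant library (25.4 to 61.9). The Cdkn2a counts are for the whole gene and do not give the ARF transcript by itself. Trp63, a p53 family member, yielded 315 control and 16 mutant counts, 14.8-fold lower (8.97 to 26.2). Ppp1r13l, which encodes the p53 inhibitor iASPP, reached 301 counts in control against 731 in mutant MSPC and was 3.23-fold higher (2.82 to 3.71). The members with the most counts were not called, namely Trim28 (6028 and 6472 counts, ratio 1.43) and Hdac1 (3937 and 3139 counts, ratio 1.06). Trp73 gave 2 counts in control and 1 in mutant MSPC, and Trp53rk was not found by symbol.

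Of 38 further p53 targets outside the 35 genes, 36 were measured. Of these, 9 were called lower (25.0%, against 8.29% of all measured genes) and 2 higher (5.56%, against 6.98%), while their median log2 ratio was -0.06. Tap1, a peptide transporter gene of antigen presentation, was 6.32-fold lower, the lipid phosphatase gene Lpin1 6.18-fold, Eda2r, a receptor gene of the ectodysplasin family, 4.55-fold, and Dcxr, a carbonyl reductase gene, 3.77-fold lower. Psrc1 was 3.07-fold lower, the epoxide hydrolase gene Ephx1 2.88-fold (10463 and 2727 counts), Trp53inp2 2.52-fold, the adenylate kinase gene Ak1 2.42-fold and Abhd4 2.25-fold lower. Trp53inp2 is the relative of Trp53inp1, so both genes of this small family were called lower. Of the genes called higher, Ninj1, whose protein acts in plasma membrane rupture, was 2.35-fold higher, but was not called with total counts, with the 100 top genes left out of the totals or with length and GC trends taken out.

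In the BCL2 family and apoptosome list, 15 of 18 genes were measured (median log2 ratio -0.05). Of these, 2 were called higher (13.3%, against 6.98% of all measured genes) and 1 lower (6.67%, against 8.29%). Xiap, an inhibitor of caspases, yielded 4351 control and 889 mutant counts and was 3.68-fold lower, Bok, a relative of Bax, was 3.2-fold higher, and Cycs, the cytochrome c gene, 2.23-fold higher. With total counts and with the 100 top genes left out of the totals Cycs was not called and Bcl2l11, the gene of the BH3-only protein BIM, was called lower (2.42-fold and 2.46-fold). Mcl1, a survival gene with 4781 and 4197 counts, was at a ratio of 1.17.

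Of 16 further nucleotide excision repair genes, all measured, 13 had a ratio above 1, against 50.1% of all measured genes, while Xpc, Ddb2 and Ercc5 lay below it. That count depended on the scaling, with 11 of 16 for total counts and 9 of 16 with the 100 top genes left out of the totals. The rule called 2 of the 16 higher (12.5%, against 6.98% of all) and 1 lower (6.25%, against 8.29%), with a median log2 ratio of 0.40. The difference from Xpc, Ddb2 and Ercc5 has no test in a pair of libraries. Ercc8 was 2.85-fold higher and Ercc1, a nuclease partner, 2.31-fold higher, while Uvssa was 2.55-fold lower. Ercc1 was not called with total counts, neither Ercc8 nor Ercc1 with the 100 top genes left out of the totals, Ercc8 not with 99% intervals, and neither Ercc1 nor Uvssa with length and GC trends taken out. Ddb1, the partner of Ddb2, reached 16959 counts in control against 15178 in mutant MSPC, a ratio of 1.19 (1.16 to 1.22), and Rad23b, a partner of Xpc, gave 5327 counts in control and 7047 in mutant MSPC, a ratio of 1.76 (1.70 to 1.82).

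Another list held 12 genes picked from the cell cycle genes known to be repressed downstream of p53 and p21. All 12 had a ratio above 1, against 50.1% of all measured genes. Of the 12, 2 were called higher (16.7%, against 6.98% of all) and 0 lower, and the median log2 ratio was 0.76. The replication helicase gene Mcm5 was 2.57-fold higher and the survivin gene Birc5 2.21-fold higher, the latter not called with total counts or with the 100 top genes left out of the totals. Top2a (10134 and 9730 counts) was at a ratio of 1.28 and Cdc20, an activator gene of the anaphase-promoting complex (3024 and 4590 counts), at 2.02, neither called.

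**Figure D4:**
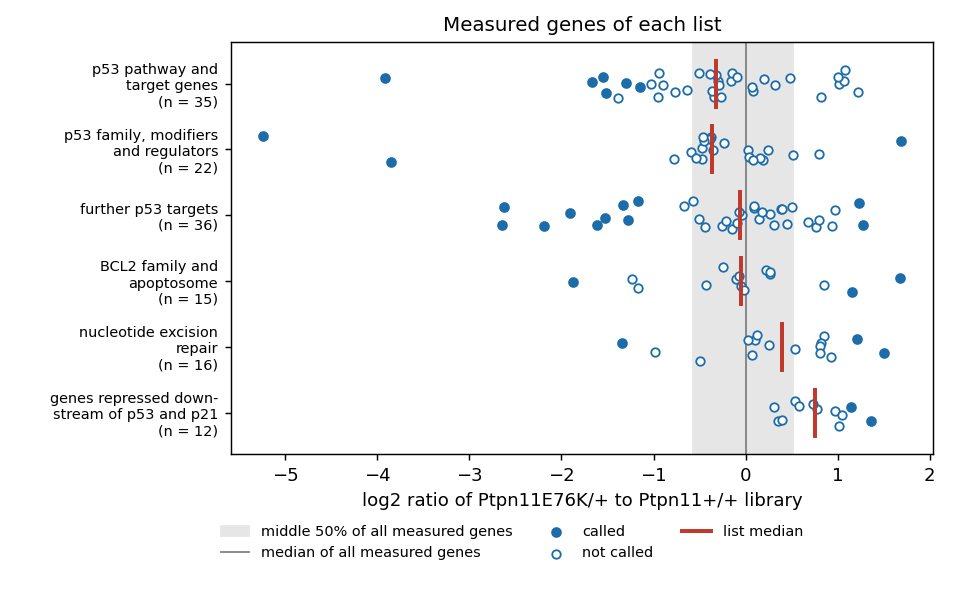
The log2 ratio of the mutant to the control library for every measured gene of 6 lists, with red bars for list medians, filled circles for genes called, and a grey band for the middle 50% of all measured genes. The medians run from -0.36 for the p53 modifiers and regulators to 0.76 for the genes repressed downstream of p53 and p21, and the 35 p53 pathway and target genes have a median of -0.32.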

How the data were processed

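The deposited table holds raw counts, whole numbers of reads per Ensembl gene without normalization, in 1 column per genotype, per the file headers. CASAVA, TopHat, edgeR and the build mm9 are named, without versions, in the submitters' processing notes. The sources used here name no counter, annotation release or strand setting. Replicates are mentioned in the design text, while 1 sample per genotype is labelled. A symbol was found for 34490 of 35275 identifiers, and 0 sample columns were left unused.

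Totals were scaled with TMM factors (1.036 and 0.965) from edgeR 4.0.16 in R 4.3.3. Ratios carry 95% intervals, by the exact Clopper-Pearson method applied to how a gene's counts divide between the libraries (SciPy 1.17.1). Pairs of genes have a 95% interval from the normal approximation of the log odds ratio of their counts. A log2 ratio used a prior count of 0.5. Trends over transcript length and GC content (longest transcript, GENCODE M21) were piecewise linear with 5 segments, fitted on genes with at least 100 counts. Promoter windows, on another build than mm9, were joined by symbol. The procedure was tested on simulated counts with counting noise only, which does not cover variation between mice. Alternatives were size factors of DESeq2 1.42.0, total counts, upper-quartile factors, totals without the 100 most abundant genes, and other minimums, limits, intervals and priors.

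The 35 genes, the other lists and the tests were chosen with earlier results of these data known. All 35 genes are named. Of each other pathway list, the genes called and the 2 with the most counts are named, while the marker lists are given mainly as sums, so that not every marker the rule names is described. Others named were chosen after their values were seen. A gene that this rule names is not reported here.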

Additional observations from a re-analysis of the deposited data

How the results depend on the processing

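The same 6 genes were called lower, and 0 higher, with total counts, DESeq2 size factors and upper-quartile factors. This also held with the 100 top genes left out of the totals, length and GC trends taken out, or a 99% interval. Minimums of 10 and 100 counts or none and a prior count of 2 could not change these calls. All 35 genes had at least 20 counts and the 6 called at least 100, and the prior does not enter a call. The following choices moved the counts. With the interval beyond 1.5-fold, 12 of the 35 genes were called lower and 4 higher, and 2046 and 2063 of all genes. With the point ratio beyond 2-fold, 5 of the 35 were called higher, and 1922 of all genes lower and 1435 higher. The median log2 ratio of the 35 genes was -0.42 with total counts and -0.45 with the 100 top genes left out of the totals, which moved the median of all genes by -0.10 and -0.13. Over all genes, 917 were called higher and 1090 lower, and 723 and 1315 with the 100 top genes left out of the totals. Of the 22 calls on the other lists, 16 held under every scaling and without the trends. The 99% interval ended the calls of Abhd4 and Ercc8.

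No paired analysis was possible because each genotype has 1 library, which also leaves no library to omit. Perp and Ddb2 rest on the fewest counts, 83 and 117 in all, and have the widest intervals.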

Other observations

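The third sestrin gene, Sesn3, which is on none of the lists, gave 1269 control and 184 mutant counts and was 5.18-fold lower (95% counting interval 4.44 to 6.09). Sesn1, Sesn2 and Sesn3 were thus all below the control level, by 2.93-fold, 1.31-fold and 5.18-fold. Wrap53, the neighbour whose antisense transcript starts beside Trp53, had 234 and 344 counts and a ratio of 1.96, close to the 2.01 of Trp53 itself. Tigar, a p53 target that lowers glycolytic flux, had 199 and 288 counts and a ratio of 1.93, and Bid, a BH3-only gene, a ratio of 1.74, so some targets stood above the control level in the library in which Trp53inp1 and Ccng1 were far below it.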
